A study of Mus musculus with 6 samples.

Results

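Transient receptor potential (TRP) channels are cation channels of the plasma membrane that let calcium, sodium and, in some members, magnesium into cells. The 9 genes described here are Trpc1, Trpc4, Trpc5, Trpc6, Trpm4, Trpm7, Trpv2, Trpv4 and Trpa1, chosen by name. Every probe set that GEO's platform annotation assigns to one of these symbols alone was taken, which gave 15 of the 45101 probe sets on the array. Of the 9 genes, 6 had a single probe set and 3 had several, namely Trpc1, Trpc4 and Trpm7.

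RNA came from carotid bodies of untreated male mice aged 28 days, of 2 inbred strains, A/J and DBA/2J, and was hybridised to 3 Affymetrix Mouse 430 2.0 arrays per strain. Each array carried a pool of many animals. For A/J, 20, 21 and 19 mice gave 40, 42 and 38 organs. For DBA/2J, 19, 18 and 19 mice gave 38, 36 and 38. The comparison asks which genes differ in expression between the carotid bodies of the 2 strains. Whether the pools of a strain were dissected on separate occasions is not stated, so the p-values measure only the spread between these pools.

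The carotid body lies at the fork of the carotid artery, and its type I (glomus) cells release transmitter when oxygen falls. Calcium entry after depolarisation drives that release. Among TRP channels, the TRPC group opens downstream of receptors coupled to Gq and phospholipase C, with TRPC4 and TRPC5 closely related to each other and TRPC1 able to join them as a subunit. TRPC6 is opened by diacylglycerol. TRPM4 is opened by intracellular calcium and passes monovalent cations, so that it depolarises cells. TRPM7 is a magnesium- and calcium-permeable channel fused to a protein kinase and is found in most cells. TRPV2 and TRPV4 belong to the vanilloid group, of which TRPV4 responds to osmotic swelling and mechanical stimuli, and TRPA1 responds to reactive irritants. TRP channels, TRPM7 among them, have been described in the carotid body of rodents.

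The summed signal of several cell type marker lists did not overlap between the strains, although few members of some lists were called. Summed over 11 type I cell markers, which include Th and Chga, the A/J arrays gave 40473 to 44351 and the DBA/2J arrays 72112 to 81905, with 6 of the 11 called higher in DBA/2J by limma and Th not among them. Over 12 skeletal muscle markers, which include Ckm and Myh4, the A/J arrays gave 51739 to 127000 and the DBA/2J arrays 1013 to 2794, and all 12 were called lower in DBA/2J. Brown and white fat markers, 7 genes, summed to 54410 to 71816 on the A/J and 25773 to 41279 on the DBA/2J arrays, with 3 of the 6 tested called lower. Type II and Schwann cell markers, 8 genes, summed to 28386 to 37307 on the A/J arrays, against 20418 to 26674, with 1 of the 8 called lower. Mast cell markers, 7 genes, summed to 4647 to 4933 on the A/J and 6984 to 10800 on the DBA/2J arrays, with 1 called higher and 1 lower. Endothelial markers, 8 genes, summed to 7327 to 7440 and 8475 to 10205, with 0 called. Of these 8, 4 were higher and 4 lower in DBA/2J, with Pecam1 and Cdh5 among the lower. At an unadjusted limma p under 0.05, 2 of the 8 passed, against 15.3% of all probe sets tested. In pooled tissue, fewer cells of a type and less RNA per cell cannot be told apart. The part of these markers in any value below was not tested. Arrays of 1 strain correlated at 0.939 to 0.964 over all probe sets (log2 values), and arrays of different strains at 0.925 to 0.946.

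None of the 9 TRP genes passed the test for a strain difference, and Trpc5 came nearest, with higher signal in DBA/2J. Strain differences were fitted with limma on log2(signal + 16) over the 27022 brighter probe sets, the upper 60% by mean, with Benjamini-Hochberg adjustment over all of them and a threshold of 0.05. A positive difference on that log2 scale means more signal in DBA/2J. Of the 15 TRP probe sets, 9 entered the fit, and they cover 6 genes (Trpc1, Trpc5, Trpm4, Trpm7, Trpv2 and Trpa1). All probe sets of Trpc4, Trpc6 and Trpv4 were too dim. In limma's test 0 of the 9 were called, against 3.27% of all probe sets tested. At an unadjusted p of 0.05, 1 of the 9 passed, against 15.3% of all. The strains did not overlap in 2 of the 9, or 22.2%, against 21.1% of all probe sets tested. With no filter on dim values, 0 of all 15 were called by limma, against 1.82% of every probe set on the array. The median difference was -0.13 over the 9, with 4 above and 5 below 0, and 0.01 over all probe sets tested. Trpm7 supplies 4 of the 9. With only the brightest probe set of each of the 6 genes, the median was 0.16, with 4 above and 2 below 0, so the sign of the median depends on the unit. The median absolute difference was 0.19 for the 9 and 0.23 for all.

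**Figure D1:**
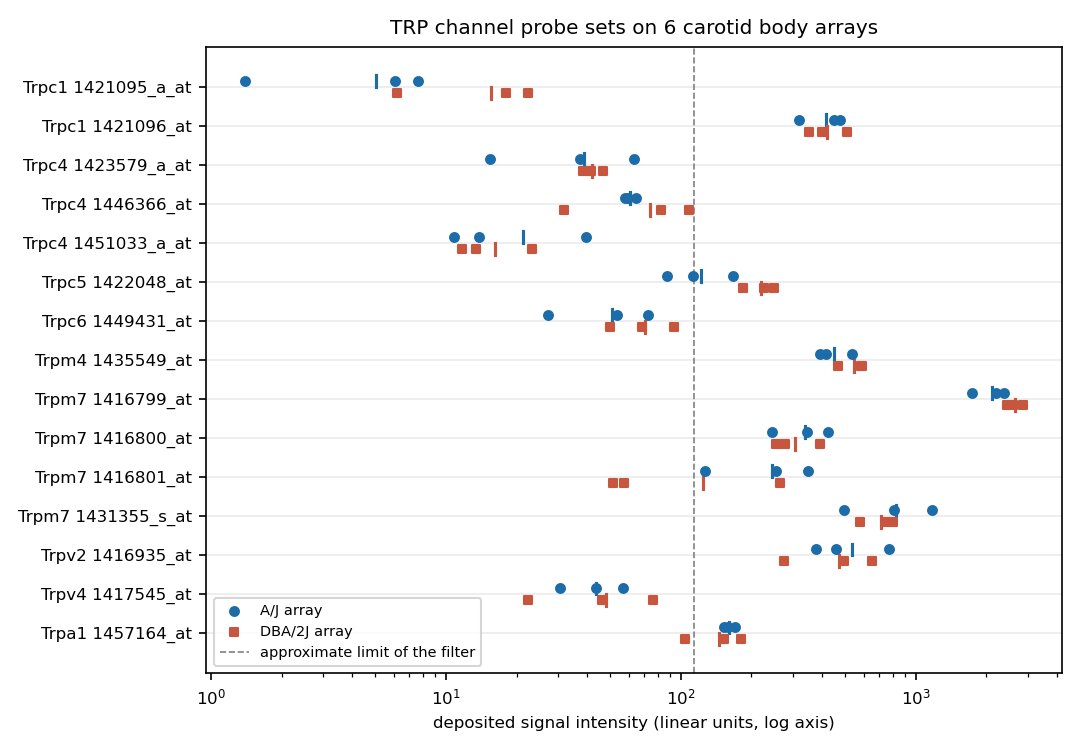
Deposited signal intensity (log axis) of the 15 TRP probe sets on the 3 A/J arrays (circles) and the 3 DBA/2J arrays (squares), with a short line at each strain's mean; the dashed line at 114 is the approximate signal at which the filter on dim probe sets lies. The strains are apart for Trpc5 (87.5 to 167 in A/J, 183.9 to 248.8 in DBA/2J) and for the Trpm7 probe set 1416799_at, and they overlap for the other 13.

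Trpc5 encodes a calcium-permeable channel opened after Gq-coupled receptor activation. Its only probe set, 1422048_at, read 167, 113.1 and 87.5 on the A/J arrays and 248.8, 183.9 and 226.9 on the DBA/2J arrays. Every DBA/2J pool was above every A/J pool, although the highest A/J and the lowest DBA/2J value are close. The A/J mean was 123 ± 40.6 and the DBA/2J mean 220 ± 33 (SD, n = 3 arrays). The log2 difference was 0.80 (SE 0.27, 95% interval 0.18 to 1.42), which corresponds to a fold of 1.74 between 1.13 and 2.67. The unadjusted limma p was 0.0171 and the adjusted p 0.191, so the difference did not pass.

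The series states a rule of its own for a changed gene: a change of 1.5-fold with p under 0.05 that holds in 6 of 9 array pairs. Here the fold of each array pair and the unadjusted limma p stood in for its calls. By this rule Trpc5 passed, with 6 of 9 pairs at least 1.5-fold higher in DBA/2J. It was the only one of the 9 TRP probe sets tested to do so (11.1%), against 9.46% of all probe sets tested. Of the Trpc5 values in A/J, 2 lie below a signal of 114, near which the filter on mean signal falls, and no detection call was used here. Whether all 3 A/J values are above background is therefore unknown.

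The Trpc5 difference kept its sign in all 16 alternative fits, from 0.61 without A/J array 3 to 1.02. Its adjusted p ran from 0.137 to 0.655 in 15 of them. With array weights it passed, at 1.02 (limma adjusted p = 0.0237). Those weights gave DBA/2J array 1, which has the highest Trpc5 signal, 3.68 and the other arrays 0.45 to 1.62. With A/J array 2 as the only A/J array, the difference was 0.86. That array has the least muscle signal in A/J, but its muscle marker sum of 51739 is far above the DBA/2J sums of 1013 to 2794. Muscle content is thus not matched in this fit, and its part in the Trpc5 difference was not tested. The marker sums of type I cells, mast cells and endothelium were also higher on all 3 DBA/2J arrays, and their part in the Trpc5 difference was not tested. Of the 8 endothelial markers, 4 were higher and 4 lower in DBA/2J.

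**Figure D2:**
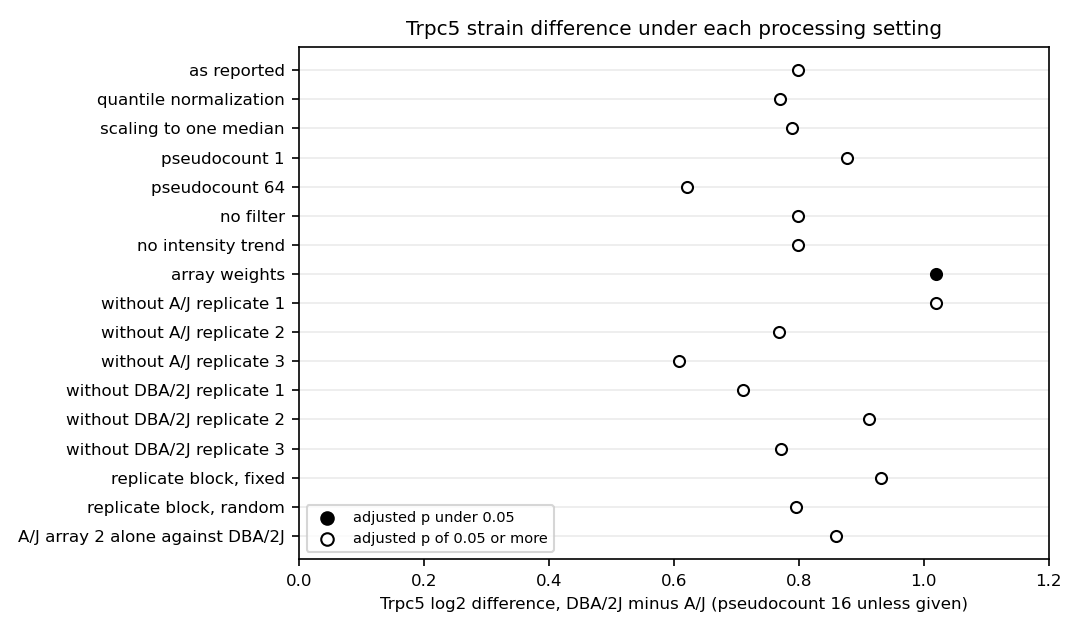
Log2 difference of Trpc5 (DBA/2J minus A/J, horizontal axis) under each processing setting, 1 point per fit, filled where the limma adjusted p was under 0.05. The points lie between 0.61 and 1.02, and only the fit with array weights is filled.

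Among the 13006 genes with a tested probe set, those whose log2 values followed Trpc5 most closely over the 6 arrays were Nanp, Nup210 and Lrrtm2, with Pearson correlations of 0.990, 0.988 and 0.986. All 6 points include the 2 strains, and 28 genes exceeded 0.95. How many of 13006 unrelated genes would exceed it over 6 arrays was not computed, so no link to Trpc5 is read from these genes. The log2 differences of the 3 genes were 0.40, 0.95 and 0.67, and limma called none of them (adjusted p = 0.388, 0.204 and 0.252).

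Trpc1, the subunit that can combine with TRPC4 or TRPC5, showed no strain difference beyond the spread on its brighter probe set. Probe set 1421096_at read 450.1, 318.9 and 474.4 on the A/J arrays, against 351.1, 401.3 and 511 for DBA/2J. The values of the strains interleave. The means were 414 ± 83.7 and 421 ± 81.8 (SD, n = 3), with a log2 difference of 0.03 (SE 0.23, adjusted p = 0.978) and a 95% interval in fold of 0.706 to 1.47. The other Trpc1 probe set, 1421095_a_at, was among the dimmest values of the family, at 7.6, 1.4 and 6.1 for A/J and at 22.3, 6.2 and 18.1 for DBA/2J. These are below the pseudocount or close to it, so no fold is read from them.

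Trpc4 and Trpc6, the remaining TRPC genes of the set, were dim on every array. The 3 Trpc4 probe sets read 10.8 to 64.7 on the A/J arrays and 11.7 to 108 on the DBA/2J arrays. Fitted with no filter, their log2 differences were 0.19, 0.12 and -0.16, none called (adjusted p = 0.902, 0.945 and 0.910). The Trpc6 probe set read 72.2, 27.1 and 53.5 for A/J and 68.5, 49.9 and 93.4 for DBA/2J, with overlapping strains. Its difference with no filter was 0.40 (95% interval -0.43 to 1.23, adjusted p = 0.745). TRPC6 is known from vascular smooth muscle. The smooth muscle and pericyte markers here, 9 genes, summed to 41270 to 49322 on the A/J and 33656 to 44606 on the DBA/2J arrays, ranges that overlap. Of the 9 markers, limma called 0, with 8 below 0 and 1 above. At an unadjusted limma p of 0.05, 3 of them passed, against 15.3% of all probe sets tested.

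Trpm7 gave different answers on its 4 probe sets. Probe set 1416799_at read 2195.7, 1734.6 and 2381.3 on the A/J arrays, against 2449, 2601.9 and 2867.9 for DBA/2J. All 3 DBA/2J pools lay above the A/J pools, with a gap that is small beside the range within A/J. The means were 2104 ± 333 and 2640 ± 212 (SD, n = 3), and the log2 difference was 0.33 (SE 0.18, adjusted p = 0.455). Its 95% interval in fold was 0.944 to 1.68.

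The Trpm7 probe set 1416801_at went the other way, at 349.5, 254.7 and 127.3 for A/J and 265.4, 51.6 and 57.2 for DBA/2J. DBA/2J array 1 read as high as the A/J arrays, while the other 2 DBA/2J arrays were far below it. The log2 difference was -1.12 (SE 0.56, 95% interval -2.38 to 0.14, adjusted p = 0.399), the widest interval among the 9 tested. It became -0.03 with array weights (adjusted p = 0.977), which favour DBA/2J array 1. Without that array it was -1.78 (adjusted p = 0.110).

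The remaining 2 Trpm7 probe sets overlapped between strains. Probe set 1416800_at read 346.3, 245.3 and 425.6 for A/J and 277.1, 391.7 and 253.4 for DBA/2J (log2 difference -0.13, SE 0.26, adjusted p = 0.886). Probe set 1431355_s_at, a kind whose probes can match transcripts of more than 1 gene, read 493.8, 1169.7 and 805.8 against 804.2, 746.7 and 581.1, with a difference of -0.14 (SE 0.30, adjusted p = 0.892). Over the 6 arrays the log2 values of 1416799_at correlated at -0.70 with 1416801_at, at -0.60 with 1431355_s_at and at 0.23 with 1416800_at. Probe sets of 1 gene thus did not rank the 6 pools alike. Averaged over all 4, the Trpm7 difference was -0.26, and that sign rests on 1416801_at, since the other 3 averaged 0.02.

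Trpm4, the calcium-activated channel, had slightly higher means in DBA/2J without separation of the strains. Its probe set, 1435549_at, read 416.3, 533.8 and 391.3 for A/J and 466.6, 584.2 and 591.2 for DBA/2J. A/J array 2 exceeded DBA/2J array 1. The means were 447 ± 76.1 and 547 ± 70.0 (SD, n = 3), with a log2 difference of 0.29 (SE 0.21, adjusted p = 0.603) and a 95% interval in fold of 0.880 to 1.69.

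Trpv2 and Trpv4, both of the vanilloid group, did not separate the strains. The Trpv2 probe set 1416935_at read 377.3, 460 and 772.9 for A/J and 495.5, 274.3 and 651.6 for DBA/2J. Its pools varied widely, with a coefficient of variation of 38.9% among the A/J and 40.0% among the DBA/2J arrays. The log2 difference was -0.19 (SE 0.35, adjusted p = 0.866), with an interval in fold of 0.503 to 1.52. Trpv2 is also expressed by macrophages, whose 7 markers summed to 24117 to 25859 on the A/J and 16705 to 24947 on the DBA/2J arrays. The Trpv4 probe set was dim, at 43.7, 30.6 and 56.7 against 46.1, 22.4 and 75.9, with a difference of 0.04 with no filter (adjusted p = 0.984).

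Trpa1, the irritant receptor of sensory neurons, read 153.5, 159.5 and 169.6 for A/J and 104.1, 180.1 and 152.7 for DBA/2J on probe set 1457164_at. The A/J pools were close together, with a coefficient of variation of 5.06%, and lay inside the range of the DBA/2J pools. The log2 difference was -0.16 (SE 0.26, adjusted p = 0.843), with a 95% interval in fold of 0.601 to 1.34. The 8 ganglion and sensory neuron markers summed to 6160 to 12219 on the A/J and 7348 to 10685 on the DBA/2J arrays, and those ranges overlap too.

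**Figure D3:**
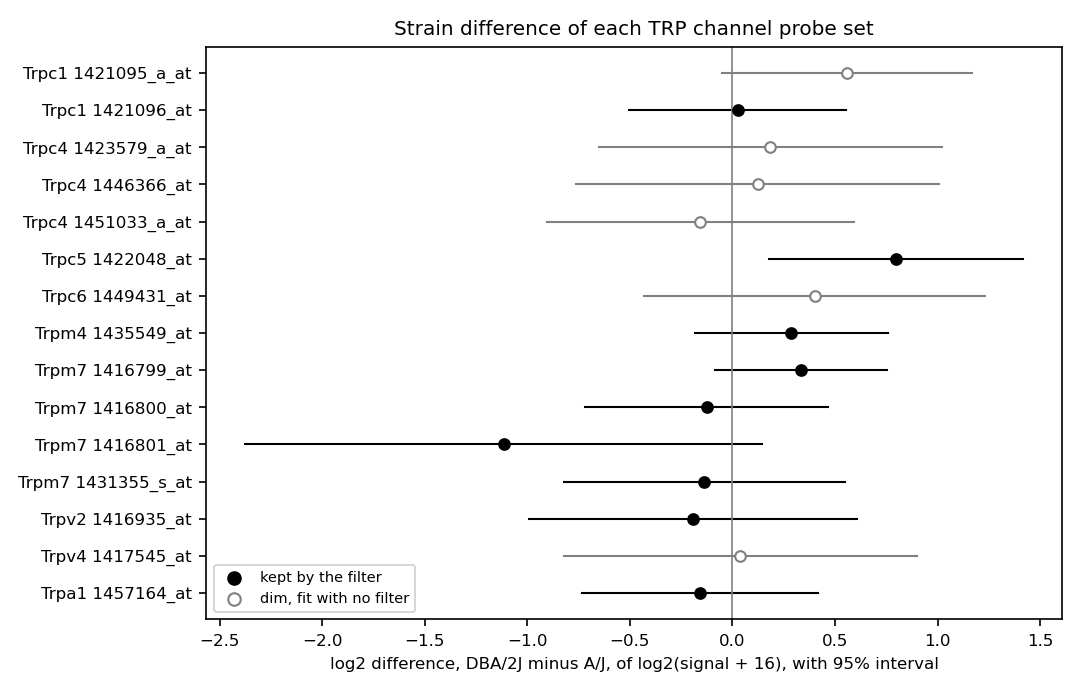
Log2 difference (DBA/2J minus A/J) of each of the 15 TRP probe sets with its 95% interval, from limma; filled points are the 9 kept by the filter and open points the 6 dim ones, fitted with no filter. Only the interval of Trpc5 lies wholly on one side of 0 (0.18 to 1.42), before adjustment for the number of tests.

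Intervals set how much these 3 arrays per strain can say. In 7 of the 9 tested (Trpc1, Trpm4, Trpv2, Trpa1 and the Trpm7 probe sets other than 1416801_at), the 95% interval reaches neither a doubling nor a halving. For Trpv2 this depends on the fit, since its lower log2 limit was -0.991, and -1.006, just past a halving, with no filter. For Trpc5 the interval includes a doubling in DBA/2J, and for Trpm7 on 1416801_at it includes a halving. The smallest absolute log2 difference among all called probe sets was 0.70, and 2 of the TRP probe sets tested exceeded it, Trpc5 and the Trpm7 probe set 1416801_at. Neither was called, since their unadjusted limma p-values were 0.0171 and 0.0760, and the largest among called probe sets was 0.00163.

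**Figure D4:**
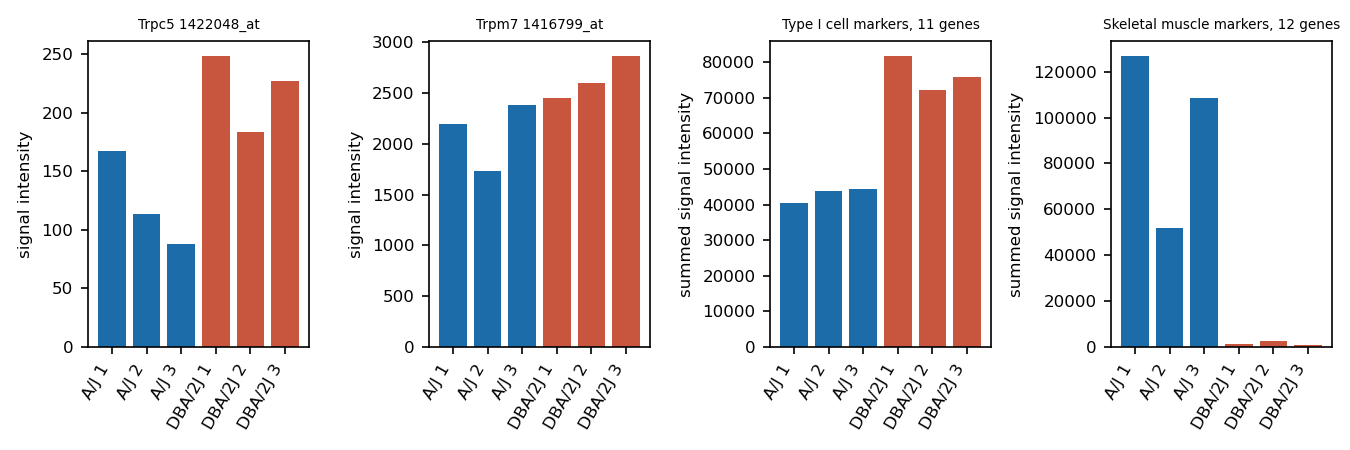
Signal on each of the 6 arrays (bars, linear axes from 0) for Trpc5, for the Trpm7 probe set 1416799_at, and summed over 11 type I cell and 12 skeletal muscle markers. Trpc5, Trpm7 and the type I cell sum are higher on all 3 DBA/2J arrays, and the muscle sum is higher on all 3 A/J arrays.

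Other genes of the TRP pathway were described with 1 probe set each, the brightest that passed the filter, in 4 lists of 59 genes, of which 42 were tested. One of the 42 was called, against 3.77% of all genes tested this way. That gene was Rgs4, a regulator that speeds the turning off of Gq and Gi proteins and is a known brake on receptors upstream of TRPC channels. Its signal was 3525.1, 3598.7 and 3466.3 for A/J and 9952.5, 6275.3 and 9066.4 for DBA/2J, and it rose by a log2 difference of 1.23 (SE 0.19, adjusted p = 0.0106). The 3 A/J pools were nearly equal, and each DBA/2J pool was well above them.

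Of the other TRP family genes, 20 in the list, 16 had a probe set and 7 were tested, with 0 called and a median log2 difference of -0.02. Trpm2, a channel opened by ADP-ribose and oxidative stress, had the smallest p of these. It read 258.5, 263.2 and 372.8 for A/J and 474.7, 457.8 and 609.9 for DBA/2J on probe set 1436225_at. The strains did not overlap, and the log2 difference was 0.76 (SE 0.22, adjusted p = 0.126). A second Trpm2 probe set, 1459482_at, was at -0.02 (adjusted p = 0.982). Trpm6, a magnesium channel related to Trpm7, was next, at -0.36 (adjusted p = 0.539). Its other probe set, 1427642_at, went the other way, at 0.28 (adjusted p = 0.765). The 9 genes too dim to test were Trpc7, Trpm1, Trpm3, Trpm5, Trpm8, Trpv1, Pkd2l1, Pkd2l2 and Mcoln2.

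Store-operated calcium entry, in which STIM sensors of the endoplasmic reticulum open ORAI channels and with which TRPC1 has been linked, gave 0 called of 9 genes tested. The median was -0.07. Itpr2, an inositol trisphosphate receptor, had -0.38 (adjusted p = 0.408) and Atp2a3, a calcium pump, 0.31 (adjusted p = 0.724). Of 15 genes of the Gq and phospholipase C pathway, 0 were called and the median was 0.09. Plcb1, a phospholipase C, had -0.44 (adjusted p = 0.308) and Prkcb, a protein kinase C, had 0.39 (adjusted p = 0.380). At an unadjusted limma p of 0.05, 0 of the 9 and 1 of the 15 passed, against 15.3% of all probe sets tested.

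TRP partners and modulators held 11 tested genes, 1 higher (Rgs4), 0 lower and 10 not called, with a median of -0.07. At an unadjusted limma p of 0.05, 6 of the 11 passed (Rgs4, Homer1, Abcc9, Cav1, Lepr and Pacsin3), against 15.3% of all probe sets tested. The strains did not overlap in 7 of the 11, against 21.1% of all, and 5 of the 11 were above 0 and 6 below. Homer1, a scaffold that links TRPC channels to inositol trisphosphate receptors, read 357.1, 277.6 and 339.8 for A/J and 124.7, 205.3 and 183.9 for DBA/2J. The strains did not overlap, but the log2 difference of -0.88 did not pass (SE 0.24, adjusted p = 0.1001). Abcc9, a regulatory subunit of ATP-sensitive potassium channels whose relative Abcc8 associates with TRPM4, had 0.57 (adjusted p = 0.210). Abcc8 itself, named for that link, had 0.31 (adjusted p = 0.608).

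**Figure D5:**
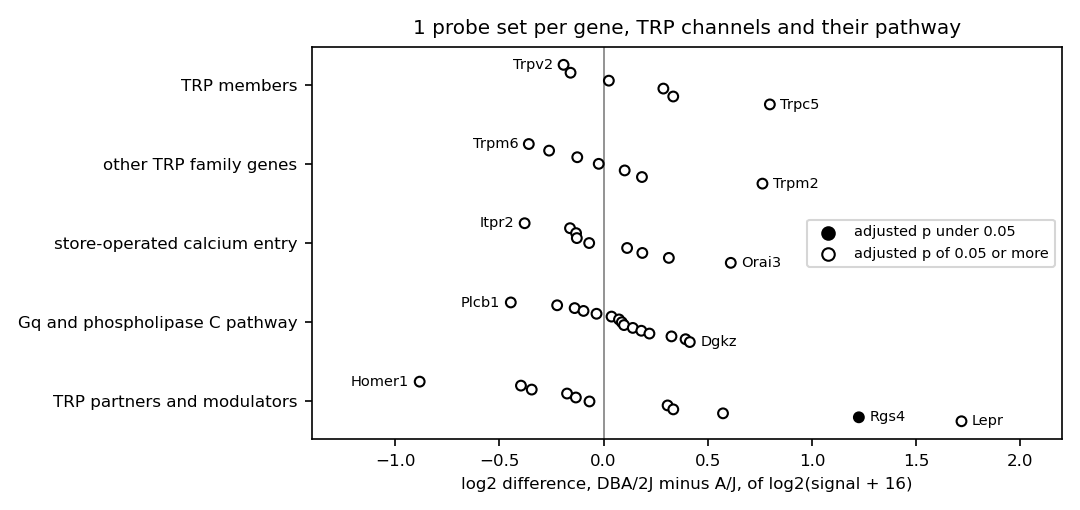
Log2 difference (DBA/2J minus A/J) of each tested gene, 1 point per gene, for the described TRP channels and the 4 pathway lists, filled where the limma adjusted p was under 0.05 and labelled at the ends of each list. The TRP channels run from -0.19 (Trpv2) to 0.80 (Trpc5), and Rgs4 at 1.23 is the filled point.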

How the data were processed

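Carotid body RNA of 3 A/J and 3 DBA/2J pools was measured on Affymetrix Mouse 430 2.0 arrays. Per the labels' protocols, total RNA was taken up in Trizol and amplified by repeated cDNA synthesis and in vitro transcription from an oligo(dT) primer. Product is then concentrated near the 3′ end of transcripts, so probe sets of 1 gene can read differently. The deposited values are linear signal intensities; no source used here names the software behind them. Every array had a 2%-trimmed mean of 500, so the authors had scaled them. Medians lay between 163.6 and 183, and no further normalization was applied.

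After removal of 64 control probe sets, 16 was added to each signal before log2, and 27022 probe sets with a mean in the upper 60% stayed in, a limit near a signal of 114. The contrast was fitted across all kept probe sets with limma 3.58.1 (lmFit, eBayes with intensity trend, two-sided, no covariate) in R 4.3.3, tested beforehand on simulated data, with figures drawn in matplotlib 3.10.9. In the simulated data 24.7% of 97 planted 2-fold changes and 98% of 98 planted 4-fold changes were called, with 9 of 129 calls false. Fewer probe sets were called there than the 883 here, so these shares do not carry over directly. Benjamini-Hochberg adjustment covered all 27022. A pseudocount understates folds of dim probe sets. Gene names came from GEO's platform annotation, where 34958 name 1 gene, 932 several and 9211 are not listed; 34897 matched a symbol of a RefSeq table, used for names only.

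The members, gene lists and tests were chosen with earlier results of these data known. Named genes are all members with every probe set, the called genes or up to 2 with the smallest p in each pathway list, and the 3 genes most correlated with the TRP probe set of smallest p. Alternatives were quantile normalization, one median, pseudocounts of 1 and 64, no filter, the upper 40%, no trend, array weights, each array left out, and the number shared in some titles as a block. A fit with A/J array 2 alone was added after seeing the data. No sequence is shown, since the probes' own sequences were not used here.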

Additional observations from a re-analysis of the deposited data

How the results depend on the processing

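The count of TRP probe sets called was 0 in every fit run except that with array weights, where it was 1 (Trpc5). By the series' rule the count of 1 became 0 with a pseudocount of 64, 0 in the upper 40% of probe sets (which leaves Trpc5 out) and 2 with the replicate block as a fixed term. It ran from 0 to 1 as each array was left out, with 0 without A/J array 2. Without A/J array 3, and without DBA/2J array 1, Trpc5 missed the rule's limit on the unadjusted limma p. The 1 that passed in those fits was the Trpm7 probe set 1416801_at, lower in DBA/2J (log2 differences -1.49 and -1.78). Trpc5 thus failed this rule without A/J array 2, without A/J array 3 and without DBA/2J array 1. Of 150 alternative values of single TRP probe sets, 138 kept their direction and stayed uncalled, 11 changed sign with no call, and 1 passed the threshold. Trpc1 on 1421096_at went to -0.0044 with quantile normalization, to -0.18 with array weights, and ran from -0.15 to 0.14 as each array was left out. Trpm7 went to 0.28 on 1416800_at with A/J array 2 alone, and to between -0.33 and 0.048 as each array was left out; 1431355_s_at ran from -0.45 to 0.15. Trpv2 ran from -0.46 to 0.14 and Trpa1 from -0.31 to 0.041 with each array left out, and Trpa1 was at 0.011 with the fixed replicate block. The cause of these turns was not tested. Across all probe sets the count of 883 became 3007 with array weights, 78 with A/J array 2 alone and 0 with the fixed replicate block, which leaves 1 residual degree of freedom, and it ran from 345 to 1338 as each array was left out. As a random block it was 848. Same-numbered arrays deviated from their strain means with correlations of -0.26 (array 2 of each strain) and 0.04 (array 3 of each strain). With 3 arrays per strain, these values cannot show whether the number marks a batch, and its meaning is not stated. Without detection calls, the dimmest members cannot be told from background.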

Other observations

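Trpc2, a channel of the vomeronasal organ in mice, had a probe set that the filter dropped and that is named here after its values were seen. The filter uses the mean over both strains: the A/J values of this probe set lie above its limit near 114, and the DBA/2J values below. Probe set 1430485_at read 265.5, 186.9 and 220.3 in A/J and 51.4, 14.9 and 47.2 in DBA/2J, so that the strains are well apart. Fitted with no filter, its log2 difference was -2.23 (limma adjusted p = 0.0227), in a fit that called 1.82% of 45037 probe sets. It was the only one of the 33 probe sets of other TRP family genes called there, and 0 of the 15 TRP probe sets described above were. A second Trpc2 probe set, 1436854_at, read 231.4, 176.8 and 279.7 in A/J and 247.4, 222.4 and 198.1 in DBA/2J, with a difference of -0.02.

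Lepr, the leptin receptor, Orai3, a store-operated channel, and Dgkz were chosen after their values were seen, for a split that did not follow strain. Lepr read 209.6, 699.2 and 129.3 in A/J and 1568.3, 268.1 and 1837.3 in DBA/2J (log2 difference 1.72, SE 0.75, limma adjusted p = 0.318). Orai3 read 30, 332.2 and 155.8 in A/J and 310.2, 63.2 and 363.2 in DBA/2J (0.61, adjusted p = 0.788). Dgkz, a diacylglycerol kinase, read 1379.3, 3086.2 and 1266 against 3268.4, 1230.1 and 3191.1 (0.41, adjusted p = 0.739). In all 3 genes A/J array 2 and DBA/2J arrays 1 and 3 were high, and the other 3 arrays were low. Other genes of the pathway and marker lists, among them Plcb3, Atp2a3, Erbb3 and Cdh5, split the same way. The split is therefore not particular to Lepr, Orai3 and Dgkz. Array 2 of each strain shares a title number, as does array 3 of each strain, and both pairs fall on opposite sides of this split. The cause was not tested.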
